A study of Bos taurus with 12 samples.

Results

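RNA from MII oocytes was compared with RNA from cumulus cells of lactating dairy cows. All 12 libraries of the series entered the comparison, 6 chosen by the word Oocyte and 6 by the word Cumulus in their titles. The study sampled multiparous lactating Holstein cows on a commercial farm, all given the synchronization program Double Ovsynch, and collected cumulus-oocyte complexes by ovum pickup. After calving, cows of the L group had lost body condition, while those of the M/G group had kept or raised theirs. Each cell type had 3 libraries from each group. The groups were pooled within a cell type, because the question here was how the oocyte and its surrounding cells differ. Each oocyte library came from the RNA of a single oocyte, so it shows that cell and not an average over cells. The condition field of the records names the opposite body condition group for all 12 libraries. Titles were followed for the group names, and the pooled comparison does not depend on that choice.

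The MII oocyte is a mature egg arrested at metaphase of the second meiotic division. It makes little new RNA and relies on transcripts stored during growth, which serve meiosis and the embryo until its own genome is active. Cumulus cells are somatic granulosa-derived cells that surround the oocyte, are coupled to it by gap junctions, actively transcribe their genes, and embed it in a hyaluronan-rich matrix around ovulation. The 12 libraries came from 9 cows, and 3 cows gave a library of both cell types, so the cell types were neither fully paired nor fully separate.

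Each deposited table lists 38030 Ensembl bovine transcripts by identifier, with a length, an effective length, an estimated count and a TPM value. An estimated count is the number of reads assigned to a transcript, and TPM is a relative abundance that divides this count by the effective length and scales each library to the same total. Estimated counts summed to 8073221 to 31810285 per oocyte library and 6397423 to 11879885 per cumulus library. A transcript was called detected in a library with over 3 estimated counts, and 24089 of 38030 transcripts detected in at least 3 libraries were kept. The identifiers could not be paired with gene names here, so transcripts are given by identifier and length in nucleotides (nt), and the cell type labels could not be checked against marker genes.

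The cell types differed in more than their cells. Oocyte libraries were made with a kit for very small RNA input (Ovation SoLo), and cumulus libraries with a different kit (Universal RNA-Seq with NuQuant). Cell type and kit cannot be told apart in any comparison below. The quantification differed as well. All 6 oocyte tables hold the same effective lengths, whereas those of the 6 cumulus tables were adjusted transcript by transcript and differ from the oocyte tables in 51.3 to 73.8% of transcripts. Among transcripts with counts above 0 in a cumulus library, 97.8 to 98.0% differ. In bulk RNA, fewer cells of a type and less RNA per cell cannot be told apart.

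Libraries separated by cell type, with 1 exception. On the first principal component of the 500 most variable transcripts, which held 72.5% of their variance, 5 oocyte libraries lay between -119.4 and -93.14 and the 6 cumulus libraries between 62.61 and 104.6. The oocyte library M/G 1 lay between them, at 10.03. Across the kept transcripts, Pearson's r of log2(TPM + 1) was 0.733 to 0.897 among the other 5 oocyte libraries and 0.647 to 0.895 among the cumulus libraries. It was 0.251 to 0.511 between these 5 oocyte libraries and the cumulus libraries. M/G 1 had an r of 0.406 to 0.569 with the other oocyte libraries and of 0.545 to 0.594 with the cumulus libraries. These correlations are across transcripts and describe libraries that share a kit within each cell type. Since M/G 1 stood apart from its group, the main measures per library, the total calls and the fitted log2 ratios below are also given without it. Values on the count scale, shares by length class and fold bounds of restricted transcripts are given only with it.

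**Figure D1:**
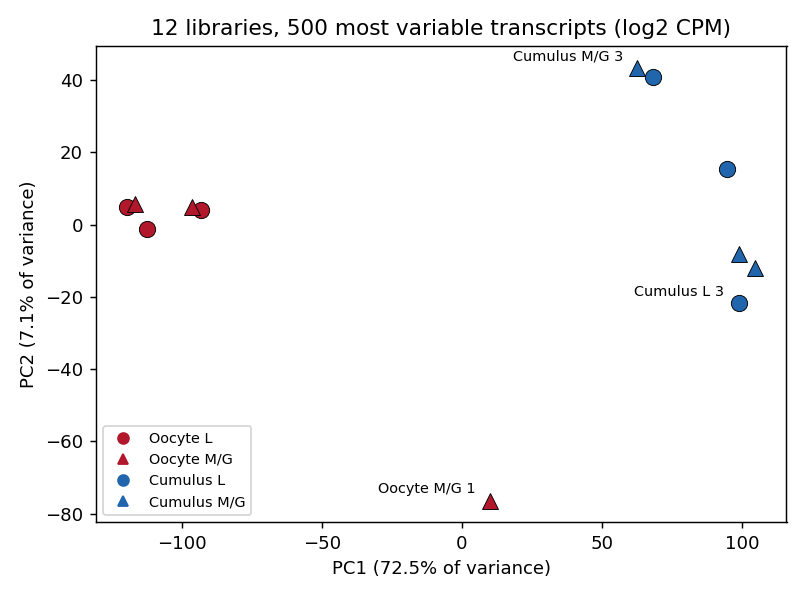
First against second principal component of log2 CPM for the 12 libraries, with red for oocyte and blue for cumulus, circles for L and triangles for M/G. Of the oocyte libraries, 5 lie between -119.4 and -93.14 on the first component, M/G 1 lies at 10.03, and the cumulus libraries lie between 62.61 and 104.6.

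The first question was how evenly RNA was spread over transcripts. The 10 transcripts with the highest TPM in a library held a lowest share of 15.0, a median of 17.4 and a highest of 70.9% of TPM in the oocyte libraries. In the cumulus libraries they held a lowest of 33.9, a median of 52.4 and a highest of 73.8%. In 5 oocyte libraries this share was below every cumulus library, and only M/G 1 overlapped with them. The mean was 25.9% ± 22.1 (SD, n = 6) in oocytes and 51.4% ± 14.2 (SD, n = 6) in cumulus cells, a difference of -25.5 percentage points (exact two-sided permutation test, p = 0.0411, adjusted over 7 measures 0.0479). Without M/G 1, the oocyte mean was 17.0% ± 2.07 (SD, n = 5) and the groups no longer overlapped. Leaving out the only overlapping library fixes that outcome. The exact permutation test then gives the smallest p it can for these libraries (p = 0.00433), which is a description and no separate support. The difference did not pass the threshold on the count scale, where the shares were 7.19% ± 10.7 in oocytes and 21.8% ± 16.5 in cumulus cells (exact permutation test, p = 0.0844), nor without transcripts under 300 nt (p = 0.0887, same exact test).

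Broader measures showed the same direction. The 100 highest transcripts held 40.5% ± 20.4 of TPM in oocytes and 70.4% ± 11.9 in cumulus cells (exact permutation test, n = 6 per cell type, p = 0.0173). The 1000 highest held 63.84% ± 13.02 and 85.3% ± 6.59 (exact permutation test, p = 0.013). The number of transcripts needed to reach 50% of TPM was between 470 and 650 in 5 oocyte libraries, only 2 in M/G 1, and between 3 and 49 in the cumulus libraries. Its mean was 461.8 ± 236.5 against 17.8 ± 18.5 (exact permutation test, p = 0.0152). To reach 90% of TPM took 5040 ± 2020 transcripts in oocytes and 2078 ± 1402 in cumulus cells (exact permutation test, p = 0.0238). On the count scale this last difference was 1307 transcripts and did not pass the threshold (exact permutation test, p = 0.0996). Without M/G 1, the oocyte means were 32.2% ± 2.68 for the 100 highest and 58.6% ± 1.42 for the 1000 highest transcripts (SD, n = 5). They were 553.8 ± 80.5 transcripts for 50% and 5861 ± 216.5 for 90% of TPM. In all 4 of these measures the 5 oocyte libraries then lay outside the cumulus range (exact permutation test, p = 0.00433 each). M/G 1 was the only library that overlapped in each, so leaving it out fixes this smallest possible p.

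**Figure D2:**
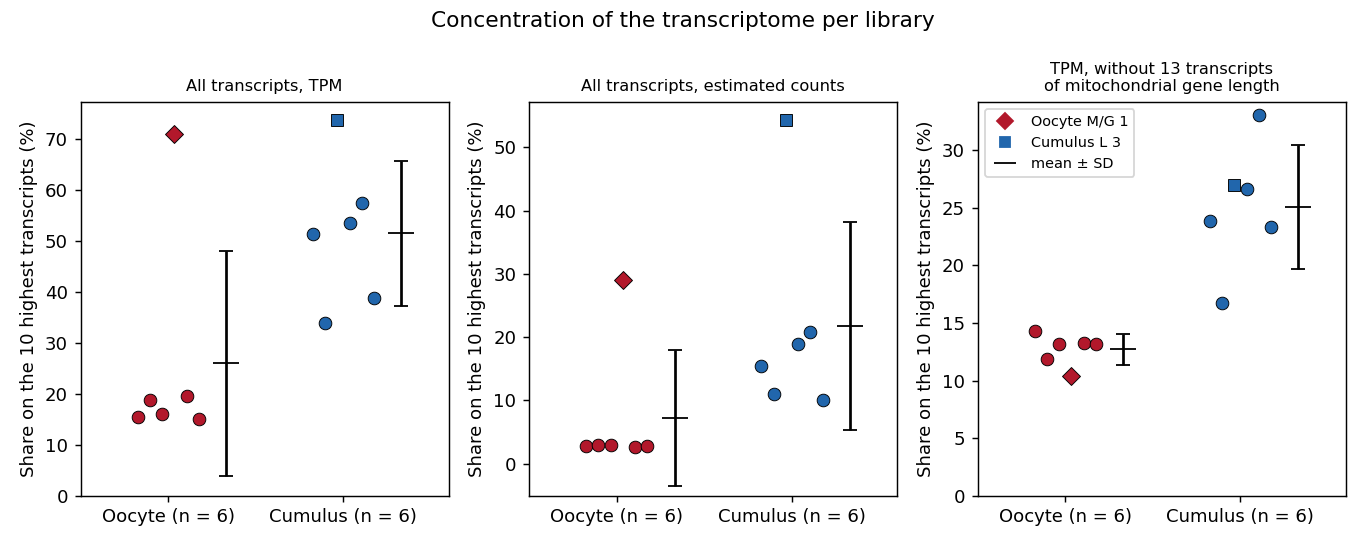
Share of each library held by its 10 highest transcripts, in percent, for TPM, estimated counts, and TPM without 13 transcripts of mitochondrial gene length. Each point is 1 library, the bar beside each group is the mean ± SD of 6, and oocyte M/G 1 (diamond) lies with the cumulus libraries in the first panel at 70.9% and with the oocyte libraries in the last at 10.4%.

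The transcript with the highest mean TPM was the same in both cell types, ENSBTAT00000060553.1, with a length of 201 nt. It held 2.15 to 47.8% of TPM in oocyte libraries and 15.1 to 38.9% in cumulus libraries. Its share of counts was only 0.0246 to 1.56% in oocytes and 0.26 to 1.36% in cumulus cells. In the oocyte tables its effective length is 17.0, so each of its reads weighs more in TPM than a read of a long transcript. The shortest transcripts therefore have to be read on both scales.

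This transcript lies in a run of 13 successive entries in the tables, from ENSBTAT00000060566.1 to ENSBTAT00000060567.1, whose identifiers are not in numerical order. The lengths of all 13 equal those of the 13 protein-coding genes of the bovine mitochondrial genome in RefSeq. Those genes encode subunits of the respiratory chain and of ATP synthase. The match is by length, not by identifier, and the set was picked after its values were seen, so it is described without a test of its own. The 13 transcripts held 0.689 to 2.69% of counts in 5 oocyte libraries and 31.8% in M/G 1. In cumulus cells they held 8.82 to 21.1% in 5 libraries and 57.9% in L 3. Thus M/G 1 was the only oocyte library within the cumulus range, and the cumulus library L 3 was far above the rest of its group.

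With all 12 libraries, 0 of the 13 were called different by edgeR's quasi-likelihood test with Benjamini-Hochberg adjustment, beside 16.7% of all transcripts tested. The fitted log2 ratios of oocyte over cumulus ranged from -2.92 to -0.83 with a median of -2.06. Without M/G 1, 13 of 13 were called lower in oocytes, with a median log2 ratio of -4.40 and a largest adjusted p of 0.00478 in edgeR. Beside this, 23.6% of all transcripts tested were then called in either direction. With all 12 libraries, 5 of the 13 had an unadjusted p under 0.05 in edgeR, beside 7639 of all 24089 tested. DESeq2 called 2 of the 13, beside 7013 of 23157 tested, and limma-voom 4, beside 7838 of 24089. Of the 13, limma on log2(TPM + 1) called 9, beside 7081 of 24089. All of these members were lower in oocytes. In edgeR with the replicate number as a block and all 12 libraries, 8 of 13 were called lower in oocytes, with a median log2 ratio of -3.25. Beside this, 2030 of all 24089 tested were called. The number called thus depended on M/G 1 and on the model. Without cumulus L 3 but with M/G 1, the median was -1.02 and 0 of 13 were called by edgeR, beside 3483 of 23712 tested.

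Leaving these 13 transcripts out of every library, an alternative chosen after seeing the data, separated the cell types. The 10 highest remaining transcripts held 10.4 to 14.3% of TPM in all 6 oocyte libraries and 16.7 to 33.1% in the 6 cumulus libraries. The difference was -12.4 percentage points, and its p was the smallest that 6 against 6 libraries allow (exact permutation test, p = 0.00216). The 13 had held 74.4% of TPM in M/G 1, the oocyte library that overlapped before. The p-values without them are therefore descriptions and no separate support. The number of transcripts holding 50% of the remaining TPM was 455 to 791 in oocytes and 94 to 286 in cumulus cells, again with no overlap. M/G 1 took the value 455, the lowest of the oocytes and above each cumulus library. The number holding 90% was 4801 to 6579 in oocytes and 3222 to 5541 in cumulus cells, which overlapped (exact permutation test, p = 0.00866).

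Within the 3 cows that gave both cell types, the direction was not uniform. The cow of oocyte L 2 had 18.8% of oocyte TPM and 73.8% of cumulus TPM on the 10 highest transcripts, and the cow of oocyte M/G 3 had 15.0 and 57.3%. The cow of oocyte M/G 1 had 70.9% in the oocyte and 38.8% in the cumulus library. Of the 3 cows, 2 followed the pooled direction, and the library that stood apart was the oocyte of the remaining cow.

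The transcripts that carried the RNA of oocytes were longer. The TPM-weighted mean transcript length was lowest at 710.5, median 1570 and highest at 1684 nt in oocyte libraries, and lowest at 677.1, median 880.8 and highest at 1183 nt in cumulus libraries. The means were 1440 ± 366.6 and 924.5 ± 188.0 nt (SD, n = 6 each, exact permutation test, p = 0.0173). The lowest oocyte value was that of M/G 1, and the other 5 oocyte libraries, from 1469 to 1684 nt, were above every cumulus library, with a mean of 1586 ± 90.9 nt (exact permutation test without M/G 1, p = 0.00433). Here too, leaving out the only overlapping library fixes this smallest possible p. Weighted by counts, the means were 3236 ± 253.0 and 2797 ± 429.9 nt (exact permutation test, p = 0.0411). Without the 13 transcripts of mitochondrial gene length, the TPM-weighted length was 1579 to 1732 nt in oocytes and 1184 to 1488 nt in cumulus cells, with no overlap (exact permutation test, p = 0.00216). These 13 were picked after their values were seen, and ENSBTAT00000060553.1 alone held 47.8% of TPM in M/G 1. This p too is a description and no separate support.

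The shares of counts by length class also differed. Outside the 13 transcripts, those of 500 to 999 nt held 5.05% ± 0.532 of counts in oocytes and 9.47% ± 0.736 in cumulus cells (SD, n = 6), with a highest oocyte value of 6.03 and a lowest cumulus value of 8.34%. Transcripts of 2000 to 3999 nt held 43.3% ± 2.29 in oocytes and 37.6% ± 0.72 in cumulus cells, and the ranges, 38.9 to 45.0 and 36.6 to 38.6%, did not overlap. Transcripts under 500 nt held 1.51% ± 0.177 and 2.46% ± 0.471, also without overlap. The longest class, of 8000 nt or more, held 4.67 to 7.56% and 5.27 to 7.03%, and overlapped.

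**Figure D3:**
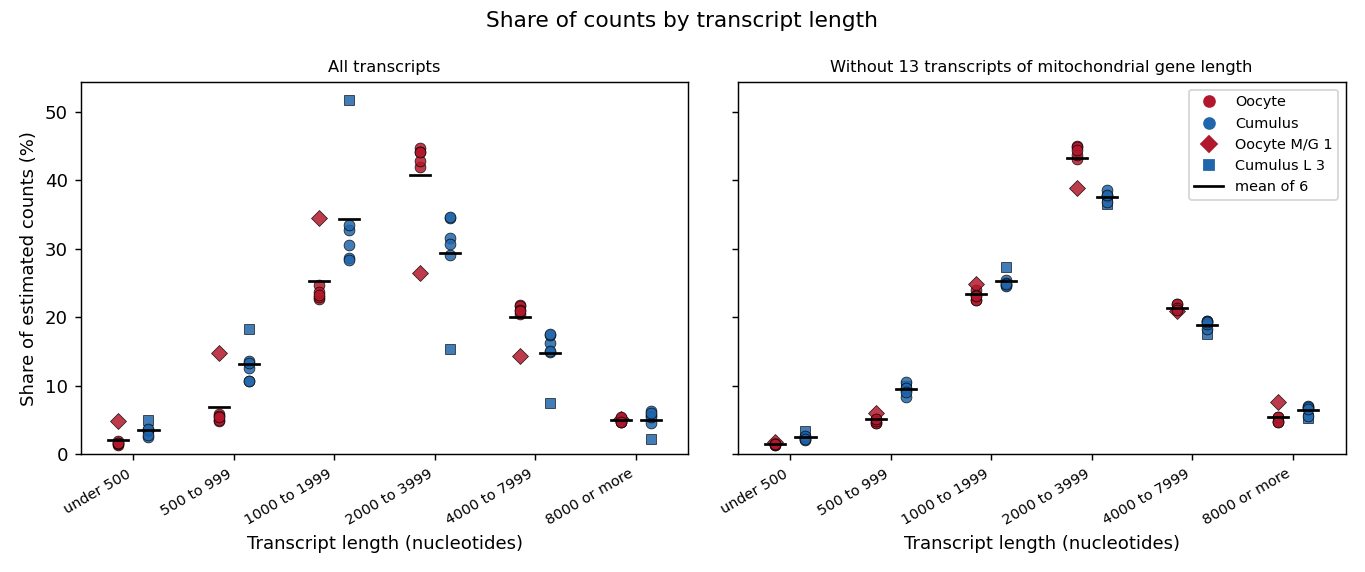
Share of estimated counts, in percent, by transcript length class in nt, with 1 point per library and a line at the mean of 6, for all transcripts and without the 13 of mitochondrial gene length. In the second panel the oocyte libraries lie lower than the cumulus libraries at 500 to 999 nt, with means of 5.05 and 9.47%, and higher at 2000 to 3999 nt, with means of 43.3 and 37.6%.

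The number of detected transcripts did not differ beyond the spread between libraries. It was lowest at 13295 and highest at 19947 in oocytes, and lowest at 12239 and highest at 20624 in cumulus cells. The means were 17910 ± 2549 and 15520 ± 3525 (exact permutation test, n = 6 each, p = 0.206). Without M/G 1 the oocyte mean was 18830 ± 1315 and the groups still overlapped (exact permutation test, p = 0.0866). With every library thinned to the smallest total, the means were 16790 and 15210 (exact permutation test, p = 0.348).

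Most kept transcripts were found in both cell types. Of the 24089, 21609 (89.7%) were detected in at least 1 library of each, 1815 (7.53%) in no cumulus library, and 665 (2.76%) in no oocyte library. After thinning these last shares were 7.08 and 3.74%. Only 4690 transcripts (19.5%) were detected in all 12 libraries, 8462 in all 6 oocyte libraries and 6669 in all 6 cumulus libraries. A transcript not detected was below the limit of 3 counts at these depths, and its absence is not shown.

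**Figure D4:**
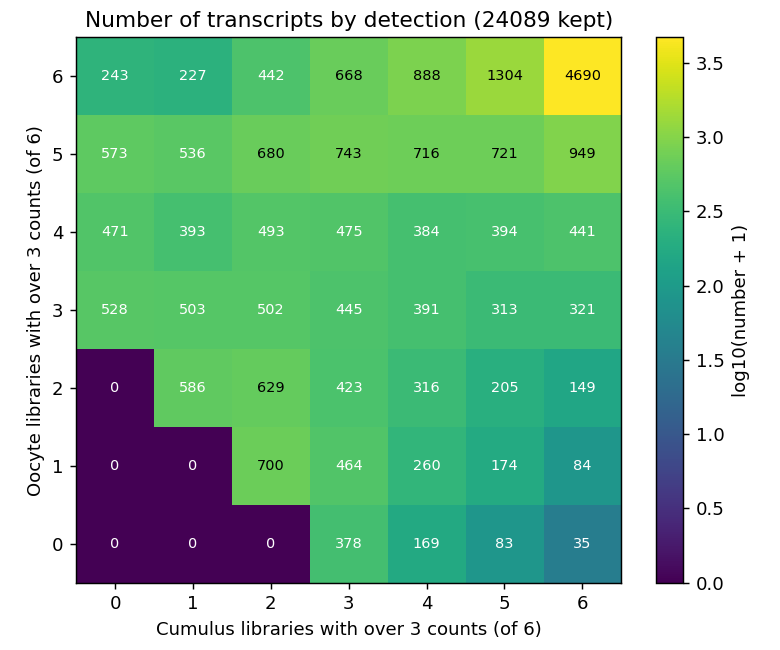
Number of kept transcripts by the number of oocyte libraries (vertical axis) and cumulus libraries (horizontal axis) in which they had over 3 estimated counts, with color on a log10 scale. The upper right cell holds 4690 transcripts found in all 12 libraries, the upper left cell 243 found in all 6 oocyte and no cumulus library, and the lower right cell 35 found in all 6 cumulus and no oocyte library.

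Transcripts restricted to a cell type were defined as detected in all 6 of its libraries and in none of the other 6. There were 243 oocyte-restricted transcripts (1.01% of those kept) and 35 cumulus-restricted transcripts (0.145%). Oocyte libraries other than M/G 1 had higher totals than every cumulus library. With all libraries thinned to the smallest total, the counts were 245 oocyte-restricted and 52 cumulus-restricted transcripts. The oocyte-restricted transcripts were 213 to 19917 nt long, with a median of 1888 nt, and the cumulus-restricted 468 to 10350 nt, with a median of 1603 nt. Mean TPM in the own cell type had a median of 35.4 and reached 5996 in the oocyte set, where 52 transcripts exceeded 100 TPM. In the cumulus set the median was 6.04 and the highest mean 77.5 TPM, so 0 of 35 exceeded 100. Near the detection limit, 44 oocyte-restricted and 13 cumulus-restricted transcripts had a lowest count of 4 to 10 in their own libraries. In the other cell type, 162 of 243 and 26 of 35 were at 0 in every library.

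The oocyte-restricted set depended more on M/G 1 than on any other library. By the rule, leaving out a library can only keep or raise the number of restricted transcripts. The oocyte-restricted transcripts together held 3.04 to 5.08% of TPM in 5 oocyte libraries and 0.276% in M/G 1. In M/G 1, 232 of the 243 were lower than the median of the other 5 oocyte libraries, with a median log2 ratio of -3.82. Leaving M/G 1 out raised the set to 741 transcripts, since 498 more were detected in all of the other 5, and 394 of these were at 0 in M/G 1. The next largest rise was to 325, without cumulus M/G 3. The cumulus-restricted count did not depend on M/G 1 in particular. It rose to 55 without M/G 1, to 61 without oocyte M/G 2, to 56 without cumulus L 1 and to 55 without cumulus M/G 1. With a rule of TPM of at least 1 in all 6 libraries against under 0.1 in the others, the counts were 129 and 15.

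The 10 oocyte-restricted transcripts with the highest mean TPM included some of the most abundant transcripts of the oocyte. ENSBTAT00000048647.3, of 669 nt, had a lowest value of 702, a median of 6600 and a highest of 8408 TPM in oocytes and 0 counts in all 6 cumulus libraries. Against a limit of 3 counts per cumulus library, put on the scale of the normalized counts, its mean was at least 5290-fold higher in oocytes. Such a bound holds for the mean over libraries and not for each library. ENSBTAT00000080361.1, of 330 nt, had 82.2 to 7428 TPM in oocytes and 0 to 0.823 TPM in cumulus cells, where no library had more than 1 count. ENSBTAT00000015998.5, of 1794 nt, had 21.6 to 3654 TPM in oocytes and at most 0.0675 TPM in cumulus cells. In each of these 3 the oocyte and cumulus values did not overlap, which the rule itself fixes.

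The next 5 in this order had lower levels. ENSBTAT00000064354.2 (597 nt) had a median of 1774 TPM in oocytes, ENSBTAT00000050790.4 (2638 nt) of 1171, and ENSBTAT00000055939.2 (624 nt) of 1004. ENSBTAT00000015289.3 (2197 nt) had a median of 1088 TPM and a mean at least 3520-fold higher in oocytes, with 0 counts in every cumulus library. Its value in M/G 1 was only 1.76 TPM (55 counts), against a highest of 1503, so the bound does not describe that library. ENSBTAT00000020894.6 (1804 nt) ranged from 14.1 TPM, in M/G 1, to 1198 TPM, with a mean at least 2310-fold higher. The last 2, ENSBTAT00000064942.2 (1581 nt) and ENSBTAT00000083057.1 (1347 nt), had medians of 852 and 795 TPM. In all 10, the lowest oocyte value was that of M/G 1.

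The 10 highest cumulus-restricted transcripts were present at far lower TPM. The rule leaves out any transcript with over 3 counts in an oocyte library. An example is ENSBTAT00000014734.5, with a median of 72846 TPM in cumulus cells. The 13 transcripts of mitochondrial gene length also held 31.4 to 80.5% of cumulus TPM. The level of this set thus does not describe the strongest cumulus transcripts. ENSBTAT00000083855.1, of 516 nt, had a lowest value of 15.1, a median of 95.4 and a highest of 141 TPM in cumulus cells, with 0 counts in every oocyte library. By the same limit in oocytes, its mean was at least 245-fold higher in cumulus cells. ENSBTAT00000005765.5, of 1735 nt, had 14.3 to 106 TPM, a median of 52.1, and a mean at least 668-fold higher. ENSBTAT00000076111.1, of 468 nt, had 8.43 to 86.7 TPM in cumulus cells and 0.235 TPM in 1 oocyte library. The steadiest of the 10 across cumulus libraries was ENSBTAT00000070550.1 (2727 nt), with 9.03 to 21.4 TPM and a mean at least 398-fold higher in cumulus cells.

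Others of the cumulus set also varied between cows, some of them widely. ENSBTAT00000087114.1 (2054 nt) had 0.145 to 72.5 TPM, and ENSBTAT00000076091.1 (1345 nt) 0.152 to 37.5 TPM. ENSBTAT00000071668.1 (1227 nt) had 5.79 to 47.3 TPM and ENSBTAT00000085369.1 (2211 nt) 6.64 to 32.2 TPM. ENSBTAT00000055953.2 (989 nt) had 0.375 to 35.4 TPM and ENSBTAT00000080482.1 (1325 nt) 1.97 to 20.5 TPM, with medians of 5.58 and 11.2 TPM.

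**Figure D5:**
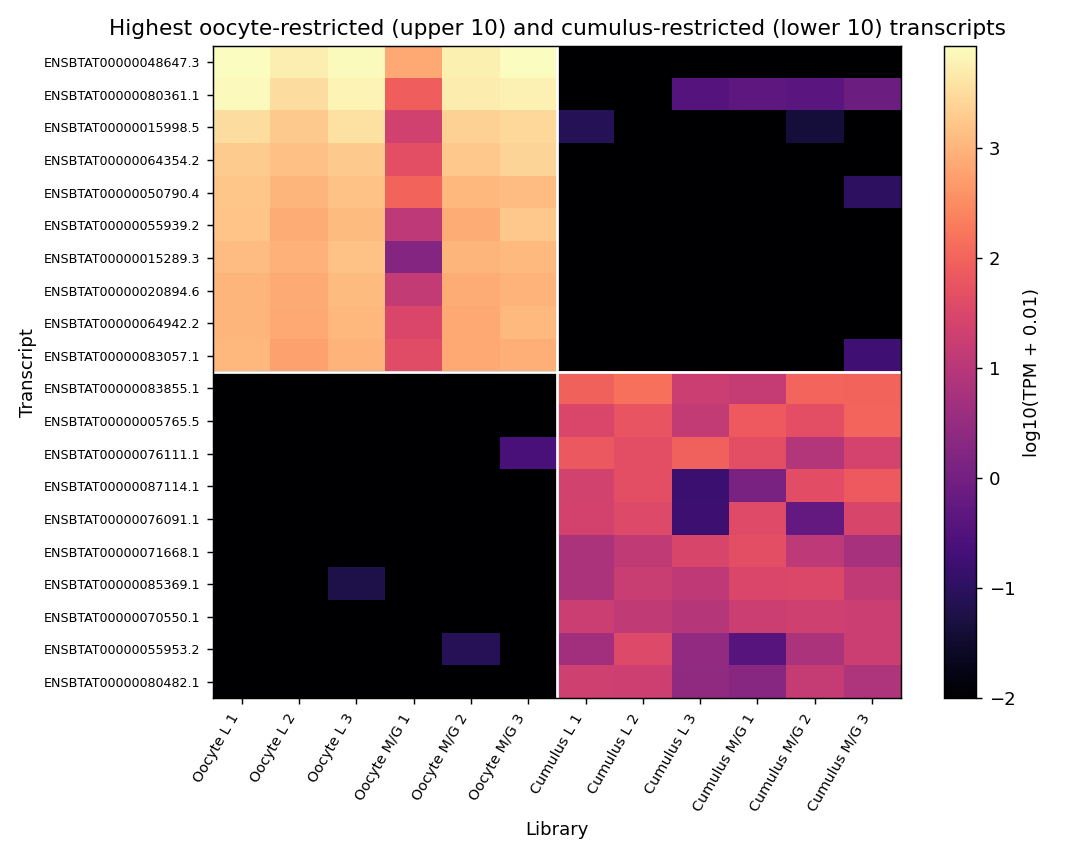
TPM of the 10 highest oocyte-restricted (upper) and 10 highest cumulus-restricted (lower) transcripts in the 12 libraries, as log10(TPM + 0.01). The oocyte-restricted transcripts are lowest in M/G 1 among the oocyte libraries, and the highest mean is 5996 TPM in the upper block and 77.5 TPM in the lower.

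Across all 24089 transcripts, 4031 (16.7%) differed between the cell types (edgeR quasi-likelihood test, Benjamini-Hochberg adjusted p under 0.05). Of these, 2649 (11.0% of those tested) were higher in oocytes and 1382 (5.74%) higher in cumulus cells. The spread between libraries of a cell type was wide, with a biological coefficient of variation of 1.72 in oocytes and 1.8 in cumulus cells. Without M/G 1, 5619 of 23806 (23.6%) were called, 3500 higher in oocytes and 2119 in cumulus cells, and 3906 of the 4026 earlier calls still tested were among them. Without a fitted model but with the same TMM scaling, normalized counts of all 6 oocyte libraries were above all 6 cumulus libraries for 1808 transcripts (7.51%). The reverse held for 1100 (4.57%). Of the calls higher in oocytes, 1042 (39.3%) were detected in no cumulus library, beside 1815 (7.53%) of all kept transcripts. Of those higher in cumulus cells, 545 (39.4%) were detected in no oocyte library, beside 665 (2.76%) of all kept. A kept transcript not detected in a cell type passed the filter only through the other, which largely sets the direction of its call. Part of these excesses over all kept transcripts is thus fixed by the filter and the direction. The balance of directions moved with the scaling. Calls were higher in oocytes for 65.7% under TMM scaling and 53.1% under upper quartile scaling, as the median log2 ratio of all transcripts went from 0.19 to -0.23.

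The calls had about the same length as the transcripts tested, whose median was 2218 nt. Those higher in oocytes had a median length of 2312 nt and those higher in cumulus cells 2168 nt. The share called lay between 15.1 and 17.6% in all 6 length classes. Of the calls, 55.5% were higher in oocytes among transcripts under 500 nt and 68.7% among those of 2000 to 3999 nt. Mean TPM in the cell type where a call was higher had a median of 45.8 for oocytes and 13.5 for cumulus cells.

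Among the 4690 transcripts detected in all 12 libraries, 1265 (27.0%) were called, 698 higher in oocytes and 567 in cumulus cells, beside 16.7% of all tested. Their median log2 ratio was -0.24, against 0.19 over all tested. These transcripts allow a ratio in every library, and the 5 with the smallest p in each direction are described here. Since they were chosen by that p, their adjusted p is a description.

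Of the 5 higher in oocytes, ENSBTAT00000026087.4 (2757 nt) had a lowest value of 60.6, a median of 228 and a highest of 328 TPM in oocytes. In cumulus cells it had 0.346, 1.48 and 3.41 TPM, and its log2 ratio was 6.49 ± 0.54 (SE, edgeR adjusted p = 2.74e-05). ENSBTAT00000030398.4 (3082 nt) had 24.0, 437 and 564 TPM in oocytes and 0.99, 2.36 and 3.42 TPM in cumulus cells, with a log2 ratio of 6.37 ± 0.55. The groups did not overlap for either. These ratios were 6.54 and 6.58 without M/G 1. ENSBTAT00000009749.6 (2834 nt), with medians of 479 and 6.54 TPM, had a log2 ratio of 5.06 ± 0.44, or 5.24 without M/G 1. ENSBTAT00000013242.4 (4309 nt) had medians of 532 and 7.03 TPM, and ENSBTAT00000005377.5 (2938 nt) of 275 and 2.11 TPM. Each of the 5 was lowest in M/G 1 among oocytes, and each still exceeded every cumulus library there.

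Of the 5 higher in cumulus cells, ENSBTAT00000004190.5 (592 nt) was the most abundant. It had a lowest value of 108, a median of 182 and a highest of 339 TPM in oocytes and 2507, 4241 and 4981 TPM in cumulus cells, with a log2 ratio of -5.17 ± 0.53 (SE, edgeR adjusted p = 0.000104). ENSBTAT00000007527.4 (1656 nt) had 40.8, 68.1 and 92.6 TPM in oocytes and 932, 1172 and 1852 TPM in cumulus cells. Its log2 ratio was -5.12 ± 0.53. The ratios of these transcripts were -5.61 and -5.50 without M/G 1. ENSBTAT00000069983.1 (4772 nt), with medians of 19.8 and 315 TPM, had a log2 ratio of -4.34 ± 0.47, or -4.62 without M/G 1. ENSBTAT00000013110.4 (1208 nt) and ENSBTAT00000034186.4 (1049 nt) had smaller ratios, of -3.13 ± 0.34 and -2.82 ± 0.32, against -3.13 and -2.86 without M/G 1. For the 2 largest of these 5, M/G 1 was within the range of the other oocyte libraries.

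The transcripts with the highest TPM included short ones that were not in the mitochondrial-length run. Their effective lengths in the oocyte tables are 9.51 to 36.9, so each read weighs more in TPM than a read of a long transcript. ENSBTAT00000076047.1, of 189 nt, had a lowest value of 1683, a median of 40710 and a highest of 61576 TPM in oocytes and 88.8, 955 and 1268 TPM in cumulus cells. It had 345 to 17360 counts in oocytes and 25 to 244 in cumulus cells. Its log2 ratio was 4.53 ± 0.63 (SE, edgeR adjusted p = 0.00058), or 4.76 without M/G 1. ENSBTAT00000014734.5, of 171 nt, had 0, 336 and 5051 TPM in oocytes and 26501, 72846 and 110394 TPM in cumulus cells, a log2 ratio of -5.72 ± 1.48 (SE, edgeR adjusted p = 0.0211). Its counts were 0 to 746 in oocytes and 2844 to 19776 in cumulus cells. The highest oocyte value was that of M/G 1, and without it the log2 ratio was -8.90 (edgeR adjusted p = 0.000291). ENSBTAT00000085188.1 (219 nt) and ENSBTAT00000072672.1 (234 nt) had medians of 16444 and 11603 TPM in oocytes and 3882 and 902 TPM in cumulus cells, overlapped between cell types, and did not pass the edgeR test (adjusted p = 0.147 and 0.132, and 0.116 and 0.111 without M/G 1).

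The comparison was also tested for whether it depended on body condition. By edgeR's interaction test, 0 of 24089 transcripts had an oocyte-cumulus difference that itself differed between L and M/G, with a smallest adjusted p of 0.229, and 1131 (4.7%) had an unadjusted p under 0.05. With 3 libraries per group and cell type, this does not show that the differences were alike. The count was also 0 under every scaling, filter and left-out library tried for this test.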

How the data were processed

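Transcript abundance was measured by RNA sequencing in 6 oocyte and 6 cumulus libraries. The authors trimmed reads with fastp and quantified them with kallisto 0.44.0 on an Ensembl bovine cDNA set. The deposited tables give estimated counts, which are not normalized, TPM, which keeps no depth, and lengths and effective lengths. Libraries were grouped by title, and 0 columns were left unmatched. The available RefSeq gene table held 0 of the 38030 identifiers, and planned marker lists were therefore not used. Replicates are separate libraries, and p-values measure the spread between them.

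Estimated counts were rounded. Transcripts with over 3 counts in at least 3 libraries were tested with edgeR 4.0.16 (TMM, quasi-likelihood F test, Benjamini-Hochberg adjusted p under 0.05) in R 4.3.3, after tests on simulated data. limma 3.58.1 and DESeq2 1.42.0 were alternatives, with other scalings, filters, covariates, blocks, pseudocount-1 log2 TPM and each library left out. Measures per library were compared with two-sided exact permutation tests in scipy 1.17.1, with Benjamini-Hochberg adjustment over 7 measures. A ratio against a cell type at 0 set the mean over libraries of the higher cell type against a limit of 3 counts per library, on the scale of the normalized counts. It covers counting error only. Named were the 10 highest restricted transcripts of each cell type, of those in all 12 libraries the 5 with the smallest p in each direction and the 5 of highest geometric mean TPM, and the 5 of highest mean TPM in each cell type. The comparison, lists and rules were chosen with earlier results of these data known.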

Additional observations from a re-analysis of the deposited data

Results flagged for a closer look

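In each group of 6 libraries, the highest or lowest value was set against the rest by Dixon's criterion, in 96 groups of values. It marked 25 values, 16 in oocyte M/G 1 and 4 in cumulus L 3. The nominal rate of 1 group in 20 assumes independent groups of normally distributed values. These groups share libraries and transcripts, so that rate is no benchmark for the 25.

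Oocyte M/G 1 was far from the other 5 oocyte libraries in the share of TPM on the 10, 100 and 1000 highest transcripts, at 70.85, 81.76 and 90.29%. It was also apart in the number of transcripts holding 50 and 90% of TPM, at 2 and 935, and in TPM-weighted length, at 710.5 nt. Its share of counts on the 13 transcripts of mitochondrial gene length was 31.84%. Single transcripts that stood apart in M/G 1 were ENSBTAT00000060553.1 (477816 TPM), ENSBTAT00000060543.1 (45694), ENSBTAT00000060547.1 (40770), ENSBTAT00000060539.1 (28737), ENSBTAT00000060562.1 (18167), ENSBTAT00000060567.1 (17352) and ENSBTAT00000014734.5 (5051), all high. ENSBTAT00000034186.4 (50.64 TPM) and ENSBTAT00000020894.6 (14.12) were low in it.

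Cumulus L 3 stood apart in the share of counts on the 13 transcripts, at 57.87%, and in ENSBTAT00000060562.1 (48546 TPM) and ENSBTAT00000060567.1 (46524), both high, and ENSBTAT00000076047.1 (88.83), which was low. The other 5 marks, of a kind that the criterion always makes, were single libraries with a trace of a transcript at 0 in the rest of their cell type. These were ENSBTAT00000050790.4 (0.09049 TPM) and ENSBTAT00000083057.1 (0.1719) in cumulus M/G 3, ENSBTAT00000076111.1 (0.235) in oocyte M/G 3, ENSBTAT00000085369.1 (0.04842) in oocyte L 3 and ENSBTAT00000055953.2 (0.07191) in oocyte M/G 2. The part of RNA quality in these values was not tested.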

How the results depend on the processing

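The 4031 calls (2649 higher in oocytes, 1382 in cumulus cells) became 7013 with DESeq2 (4564 and 2449), 7838 with limma-voom (4364 and 3474), 7821 with cow as a random block (4378 and 3443) and 7081 on log2(TPM + 1) (5699 higher in oocytes). They became 2622 when tested against a 2-fold change (735 in cumulus) and 2572 with over 10 counts in 6 libraries (1693 and 879), and without a filter 851 were higher in cumulus. With the replicate number as a block there were 2030 (1475 and 555), but same-numbered pairs of libraries share only a number. Deviations from the mean of the cell type and body condition group correlated at -0.0208 to 0.136 in these pairs. In the pairs from the same cow, correlations of such deviations were 0.02, -0.063 and -0.108. In the 6 libraries of 3 cows, edgeR made 0 calls with a cow block and 0 without, with 1375 and 2099 at an unadjusted p under 0.05. No call changed direction and stayed a call. The share of calls higher in oocytes was 69.4% with RLE scaling, 70.3% with library totals and 80.5% on log2(TPM + 1).

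Leaving out 1 library gave 2388 to 5619 calls, 1636 to 3500 higher in oocytes and 752 to 2119 in cumulus, and 0 to 0 for the interaction. The lowest 2 totals came without oocyte M/G 3 (2388) and oocyte L 1 (2469). Calls higher in cumulus moved by over 1.5 times without oocyte L 1 (792), L 3 (846), M/G 1 (2119) and M/G 3 (752) and cumulus L 1 (884), L 2 (854) and M/G 3 (812). Leaving out 1 library also gave differences of -34.48 to -21.03 percentage points for the 10 highest transcripts, -38.2 to -26.14 for 100 and -26.74 to -19.48 for 1000. Differences were 406.4 to 536.0 and 2572 to 3783 transcripts for 50 and 90% of TPM, 1736 to 3413 for detected transcripts and 466.1 to 661.5 nt for length. The share on the 10 highest missed the threshold in 10 of these 12, and also on counts (-14.59) and without transcripts under 300 nt (-18.74), as did the number for 90% on counts (1307). The cause was not tested. With common effective lengths in all libraries, the difference was -25.12 percentage points for the 10 highest transcripts and 513.5 nt for TPM-weighted length.

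Restricted transcripts numbered 248 to 741 (oocyte) and 39 to 61 (cumulus) with 1 library left out, 850 and 78 without both oocyte M/G 1 and cumulus L 3, 129 and 15 by TPM (127 and 15 with common effective lengths), and 1579 and 376 when 5 of 6 against at most 1 of 6 sufficed. Thinned to the smallest total they numbered 245 and 52.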
